A study of Mus musculus with 47 samples.

Results

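The acyl-CoA thioesterases described here are Acot1, Acot2, Acot3, Acot4, Acot5, Acot6, Acot8, Acot9, Acot12 and Acot13, 10 of the 23416 genes counted in every library. They were selected by name, with their levels in liver and in spermatozoa already known, so their values are given as a description and no p-value is given for any of them. Read counts came from 10 mouse RNA libraries in 5 groups of 2 replicates: liver of KO-F1 and Ctrl-F1 males, and cauda epididymal spermatozoa that were motile in a swim-up, of KO-F2, KO-F1 and Ctrl-F1 males, all 8 to 12 weeks old and fed ad libitum on a standard diet. The Ctrl-F1 and KO-F1 males were made by ICSI, the injection of a sperm into an oocyte, with testicular sperm of wild-type or Scml2-KO (-/y) fathers, and their background strain is given as BDF2. Scml2 is X-linked, so a son of a Scml2-KO father carries a wild-type Scml2 from his mother. KO-F2 males were sons of KO-F1 males and C57BL/6 females, and their background strain is given as BDF3. No Ctrl-F2 library was analysed here, and the KO-F2 libraries came from a sequencing run of their own, so in KO-F2 the generation, the background and the run cannot be told apart. The question behind the comparisons is whether the sons and further descendants of Scml2-KO males differ from those of wild-type males in tissues that carry no mutation.

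Acyl-CoA thioesterases split fatty acyl-CoA into a free fatty acid and coenzyme A. They set the balance between activated and free fatty acids in the cytosol, mitochondria and peroxisomes, and therefore meet fatty acid oxidation at many points. In liver, several of them rise on fasting through the nuclear receptor PPAR alpha, together with enzymes of fatty acid oxidation. Acot1 to Acot6 belong to the type I family: Acot1 is cytosolic, Acot2 mitochondrial, and Acot3 to Acot6 peroxisomal. The others belong to the type II family, where Acot8 is peroxisomal, Acot9 and Acot13 are mitochondrial, and Acot12 is a cytosolic enzyme that prefers acetyl-CoA.

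The 6 type I genes lay side by side on chromosome 12 (GRCm38, chr12:83987861-84109783), all on the plus strand, in the order Acot2, Acot1, Acot4, Acot3, Acot5, Acot6, over 121923 bp. Gaps between neighbours were between 7420 and 24629 bp. Acot8 lay on chromosome 2, Acot9 on chromosome X, and Acot12 and Acot13 far apart on chromosome 13. Parts of these genes recur in other genes: of the 75-base windows of the longest transcript, 15.5% of those of Acot1, 21.2% of Acot2, 16.5% of Acot3 and 14.5% of Acot5 were also found in transcripts of another gene, against 3.33% for Acot6 and 1.80% for Acot4. Acot1 and Acot2 shared them mostly with each other, and Acot3 mostly with Gm49366 (10.6% of its windows). Where such a window also recurs elsewhere in the genome, its reads cannot be assigned to a single gene. Levels of Acot1, Acot2, Acot3 and Acot5 are therefore less certain, though only transcripts and not genome positions were compared. Acot9 shared 7.15% of its windows with the retrogene Acot10. Acot8, Acot12 and Acot13 shared none. Exons of Acot8 and Acot12 lie across from exons of a gene on the other strand. These are Snx21 over 243 bp for Acot8 and 4833422C13Rik over 239 bp for Acot12. Exons of Acot3 and Acot4 likewise lie across from Gm40474, over 282 and 81 bp, a gene not among those counted. The sperm kit does not mark strand.

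RefSeq promoter sequence (GRCm38.p6) was at hand for 8 of the 10 members, all but Acot6 and Acot13. The 250 bases before the start are shown for 3 of the 4 cluster genes whose liver levels went up and down together (of the Acot4 window, which lies in an exon of another transcript of Acot4, only a match is shown) and for Acot9, a type II gene counted in every library; these 4 windows overlap no exon of their gene. Capitals mark TATAAA.
Acot2, chr12:83987611-83987860, plus strand: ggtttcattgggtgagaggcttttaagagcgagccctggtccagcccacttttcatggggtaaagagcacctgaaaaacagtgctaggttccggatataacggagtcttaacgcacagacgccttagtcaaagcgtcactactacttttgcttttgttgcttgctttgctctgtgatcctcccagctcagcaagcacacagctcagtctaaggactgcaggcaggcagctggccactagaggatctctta
Acot1, chr12:84009252-84009501, plus strand: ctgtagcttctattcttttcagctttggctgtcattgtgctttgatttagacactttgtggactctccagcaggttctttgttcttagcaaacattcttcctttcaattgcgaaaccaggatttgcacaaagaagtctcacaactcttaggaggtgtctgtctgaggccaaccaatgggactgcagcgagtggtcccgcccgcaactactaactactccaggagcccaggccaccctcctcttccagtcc
Acot3, chr12:84051894-84052143, plus strand: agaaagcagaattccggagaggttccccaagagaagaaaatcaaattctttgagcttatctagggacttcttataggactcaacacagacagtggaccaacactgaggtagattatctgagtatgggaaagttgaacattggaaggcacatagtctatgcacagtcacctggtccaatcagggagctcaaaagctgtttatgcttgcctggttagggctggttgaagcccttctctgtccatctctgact
Acot9, chrX:155262193-155262442, plus strand: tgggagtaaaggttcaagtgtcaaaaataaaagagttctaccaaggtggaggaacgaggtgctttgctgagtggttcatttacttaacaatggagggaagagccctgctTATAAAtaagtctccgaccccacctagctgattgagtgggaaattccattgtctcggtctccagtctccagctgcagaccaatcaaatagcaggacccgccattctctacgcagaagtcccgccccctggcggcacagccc
The letters AGGTCANAGGTCA, the direct repeat that PPAR and RXR bind as a pair, were searched on both strands with at most 2 of the 12 fixed letters mismatched. Among all 27025 promoters of the table, 3.18% held a match. Of the 8 members, Acot4 and Acot12 held 1 each. The Acot4 match, TGACCTTTGGCCG at chr12:84038366-84038378, had 2 mismatches and began 13 bases before the start. The Acot12 match, TGACCTCTCACCT at chr13:91741411-91741423, had 1 mismatch and began 110 bases before the start. Both read on the minus strand, and both windows run over an exon of another transcript of the same gene. TATAAA, read on both strands, stood in 3504 of all promoters, and among the members in Acot4 (3 matches) and Acot9 (1 match, 141 bases before the start). The 3 windows of Acot1, Acot2 and Acot3 held neither set of letters.

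Depth differed between tissues: from 11339729 to 14278900 counts per liver library, from 1503733 to 2778171 per F1 sperm library, and 11462105 and 8384266 for KO-F2. Rn45s, ribosomal RNA, took from 0.636% to 1.59% of liver counts, from 15.7% to 28.7% of F1 sperm counts, and 13.3% and 3.52% of those of KO-F2. All 7 hepatocyte markers were present in every liver library and made up between 10.97% and 12.1% of its counts. The 8 markers of late spermatids and sperm were present in every sperm library. Scml2 was at 0 counts in every liver library and between 0 and 18 counts in the sperm libraries. Levels are given as CPM, counts scaled to a common library size (TMM) within a tissue, and the detection limit of 3 counts came to between 0.201 and 0.278 CPM in liver, from 0.893 to 2.52 CPM for F1 spermatozoa, and to 0.265 and 0.364 CPM in KO-F2 spermatozoa.

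In liver, the type I genes Acot1 to Acot4 differed more between the replicates of a group than between Ctrl-F1 and KO-F1. Acot3, a peroxisomal enzyme that acts on long-chain acyl-CoA, had 38 and 267 counts for Ctrl-F1 liver against 113 and 16 for KO-F1 liver. Its levels of 2.70 and 17.9 CPM in Ctrl-F1 differed 6.64-fold, and those of 9.22 and 1.48 CPM in KO-F1 differed 6.22-fold. On the scale of log2(CPM + 1), Acot3 had the widest range of the members over the 4 libraries, 2.93, followed by Acot4 with 1.52 and Acot1 with 1.31, while the other members tested ranged between 0.51 and 0.68.

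Acot1, Acot2 and Acot4 had the same rank within each group as Acot3, with Ctrl-F1 replicate 2 above replicate 1 and KO-F1 replicate 1 above replicate 2. Acot4, which acts on succinyl-CoA and dicarboxylyl-CoA, had 208 and 376 counts for Ctrl-F1 against 216 and 88 for KO-F1. For Acot1, the cytosolic form, the counts were 120 and 233 for Ctrl-F1 against 195 and 63 for KO-F1. The mitochondrial Acot2 was lower, with 40 and 56 counts for Ctrl-F1 against 50 and 24 for KO-F1. In each of these genes the groups overlapped, and KO-F1 replicate 2 was the lowest library. Acot1 to Acot4 summed to 406 and 932 counts for Ctrl-F1 against 574 and 191 for KO-F1. The same rank within each group was also seen outside the cluster. Acot13 had 62.2 and 70.6 CPM for Ctrl-F1 against 89.2 and 69.7 for KO-F1. Acot7, a thioesterase outside the set, had 21.5 and 29.8 CPM against 28.6 and 21.3. A range as large as that of Acot2, 0.66, was found for 30.9% of the 11505 genes compared. For the range of Acot1 this share was 3.93%, for that of Acot4 2.09% and for that of Acot3 0.2%.

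**Figure D1:**
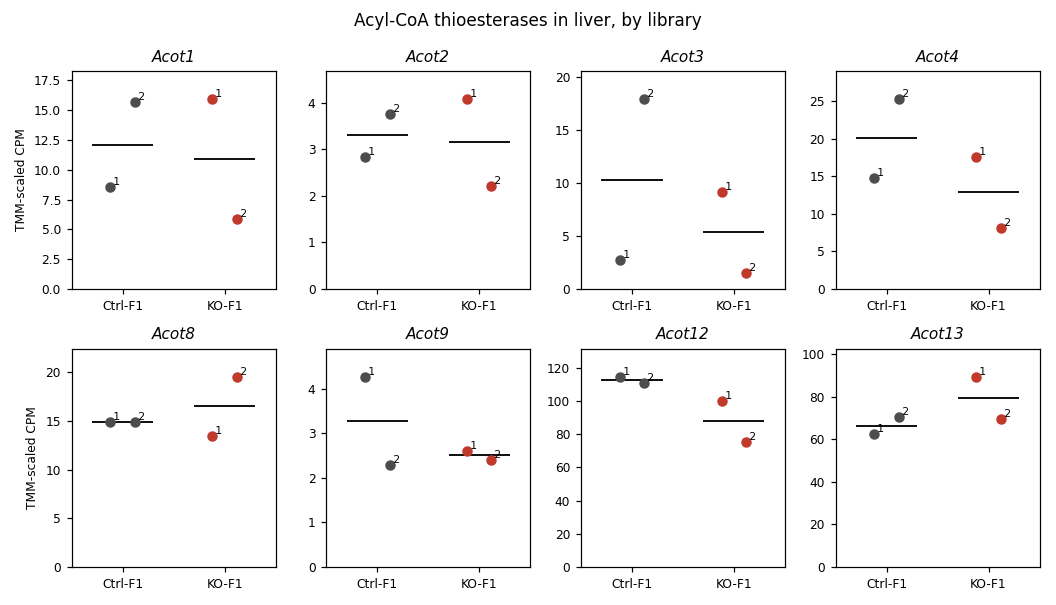
TMM-scaled CPM of the 8 members tested in liver, by group; each point is a library with its replicate number beside it, the bar is the mean of the 2 libraries, and every axis starts at 0. Acot1 to Acot4 are high in Ctrl-F1 replicate 2 and KO-F1 replicate 1 and lower in the other library of each group. Acot13 has the same order within each group, whereas Acot12 is lower in both KO-F1 libraries.

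Of the type II genes, Acot12 was the only 1 without overlap. It had 1612 and 1652 counts for Ctrl-F1 against 1228 and 817 for KO-F1, which is 113 ± 2.60 CPM against 87.9 ± 17.4 CPM (mean ± SD, n = 2), and both KO-F1 libraries lay below both Ctrl-F1 libraries. Acot13, a mitochondrial enzyme for long-chain acyl-CoA, had 875 and 1051 counts for Ctrl-F1 against 1094 and 753 for KO-F1, and the groups overlapped. Acot8 had 210 and 222 counts against 165 and 211, and Acot9 had 60 and 34 against 32 and 26, again with overlapping levels. Acot5 had 1 count in 1 of the 4 livers and none in the others. Acot6 had 2 and 6 counts for Ctrl-F1 against 7 and 11 for KO-F1, too few to pass the filter on low counts, so no fold was fitted although both KO-F1 levels were above both of Ctrl-F1.

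Compared per length of exon, Acot13 led the members in Ctrl-F1 liver with 96.8 ± 8.62 CPM per kb (SD, n = 2), followed by Acot12 with 34.8 ± 0.803 and Acot1 with 7.75 ± 3.23 CPM per kb. Acot8, Acot4, Acot3, Acot9 and Acot2 followed between 4.48 and 1.501 CPM per kb, and each neighbour in that order overlapped the next in its replicates. Acot6 and Acot5 came last at 0.150 and 0.0210 CPM per kb. KO-F1 liver gave the same first 6 places, and there Acot1 overlapped Acot8.

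The comparison of KO-F1 with Ctrl-F1 liver asked whether offspring of mutant fathers differ in a somatic tissue. A gene was called when its fold change was at least 2 and its adjusted p under 0.01. Of the 8 members tested, edgeR called 0, beside 0% of all genes. At an unadjusted p under 0.05 it gave 0 members and 1083 of the 11505 genes tested. DESeq2, which gave 5 of the members an adjusted p, called 0 of them. It called 0.274% of the 7306 genes that it gave an adjusted p. Counts of members without overlap were 0 members higher and 1 member lower, Acot12, where 20.1% of all genes tested lay higher in both KO-F1 libraries and 21.4% lower. The fitted log2 fold change (KO-F1 over Ctrl-F1) was -0.36 ± 0.18 (SE) for Acot12, 0.26 ± 0.18 for Acot13 and 0.14 ± 0.22 for Acot8. For the cluster it was -0.93 ± 0.90 for Acot3, -0.63 ± 0.38 for Acot4, -0.15 ± 0.46 for Acot1 and -0.06 ± 0.44 for Acot2, and Acot9 fitted at -0.38 ± 0.46. Single libraries decided most of these values: the log2 fold change of Acot3 was 1.00 without Ctrl-F1 replicate 2 and -2.79 without KO-F1 replicate 1, and that of Acot1 was 0.36 and -1.04 (lone libraries are assumed to vary like the other group). With 1 library left out, Acot4 ran from -1.29 to -0.18, Acot2 from -0.56 to 0.30, Acot9 from -0.76 to 0.14 and Acot8 from -0.15 to 0.40. Without Ctrl-F1 replicate 1, Acot3 fitted at -1.72.

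**Figure D2:**
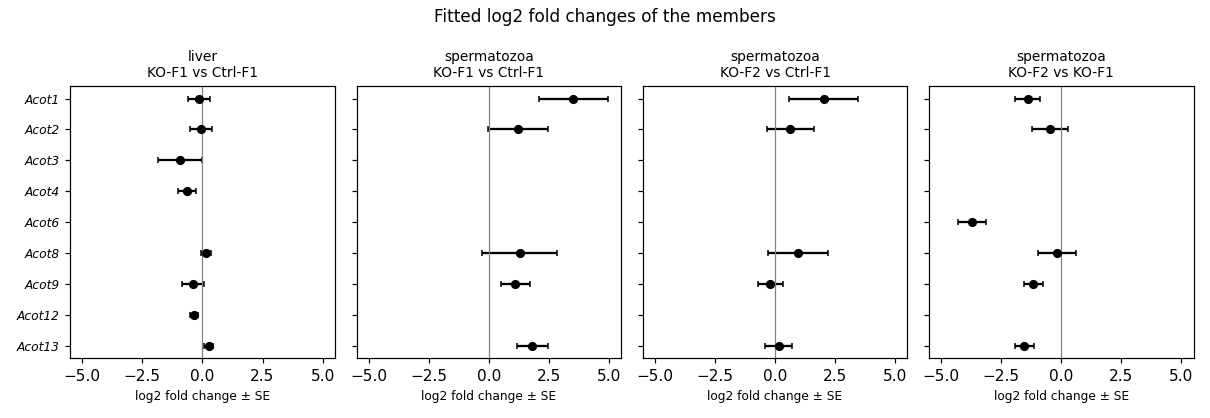
Fitted log2 fold changes of the members in each of the 4 comparisons, with bars of ±1 SE; a gene is drawn only where it passed the filter and each group had a library above the limit of 3 counts. In liver every point lies between -0.93 and 0.26, whereas in spermatozoa the points for KO-F1 over Ctrl-F1 lie above 0 and those for KO-F2 over KO-F1 below it.

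Genes of the surrounding pathways were also compared in liver, and edgeR called 0 of them in any list, nor did DESeq2 call a gene named here. Of the 7 other thioesterases 5 were tested, with 1 lower at an unadjusted p under 0.05. Them4, a mitochondrial thioesterase, had 402 and 456 counts for Ctrl-F1 against 286 and 228 for KO-F1, with a log2 fold change of -0.41 ± 0.16 (edgeR, adjusted p = 0.51). Baat, which conjugates bile acids, had 4383 and 4792 counts against 3708 and 2842 (edgeR, adjusted p = 0.769). Acot7, Acot11 and Them6 overlapped between the groups, and Acot10 and Them5 had at most 15 counts in any liver library.

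The carnitine shuttle, which carries fatty acids into mitochondria, had 6 genes tested, 0 called (3 at an unadjusted p under 0.05, all lower), 4 lower in both KO-F1 libraries and 0 higher (all genes 21.4% and 20.1%), and its median log2 fold change was -0.33, where all genes had -0.01. The carnitine transporter Slc22a5 fitted at -0.88 ± 0.18 (edgeR, adjusted p = 0.353), and Cpt1a, the rate-limiting enzyme of the shuttle, had 6130 and 5241 counts against 3818 and 2840 (-0.46 ± 0.18, edgeR, adjusted p = 0.509). Among 16 tested genes of the fasting response and PPAR alpha targets, 0 were called (4 at an unadjusted p under 0.05, all lower), 7 were lower in both KO-F1 libraries and 0 higher (all genes 21.4% and 20.1%), with a median of -0.31. G6pc, the last enzyme of glucose release, had 1991 and 6237 counts for Ctrl-F1 against 1593 and 1102 for KO-F1 (-1.27 ± 0.43, edgeR, adjusted p = 0.491), highest in Ctrl-F1 replicate 2. Lpin1 (161.7 and 111.7 CPM for Ctrl-F1 against 78.3 and 89.9 for KO-F1) and Igfbp1 (16.5 and 10.6 against 8.16 and 2.498), an insulin-like growth factor binding protein, were highest in Ctrl-F1 replicate 1 (edgeR, adjusted p = 0.484 and 0.502).

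Of the 18 genes of peroxisomal beta-oxidation 0 were called (2 at an unadjusted p under 0.05), 5 were lower and 2 higher without overlap (the shares of all genes being those above), with a median of -0.17. Pex11a, a factor of peroxisome division, fitted at -0.85 ± 0.17 (edgeR, adjusted p = 0.353). The 15 genes of mitochondrial beta-oxidation gave 0 called (3 at an unadjusted p under 0.05), 6 lower and 1 higher, with a median of -0.09. Fatty acid uptake and activation gave 0 called (2 at an unadjusted p under 0.05), 4 lower and 1 higher of 13, with a median of -0.21, microsomal omega-oxidation 1 and 1 of 7, ketogenesis 1 lower and 0 higher of 4, and fed-state fatty acid synthesis 0 lower and 1 higher of 14. Summed over its genes, the fed-state list had 4006 and 17060 CPM for Ctrl-F1 against 11840 and 7161 for KO-F1, so that the libraries high in Acot1 to Acot4 were also high in this list. The fasting list summed to 4580 and 4580 CPM against 2959 and 3510 and had no such order. The part of the fed state in the thioesterase levels was not tested.

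The genes whose liver pattern was nearest to that of Acot3, by the root mean square difference of centred log2(CPM + 1) over the 4 libraries, were Pltp at 0.368, Sparcl1 at 0.396 and Elovl6 at 0.445. Pltp, a phospholipid transfer protein, had 87 and 530 counts for Ctrl-F1 against 271 and 86 for KO-F1. Elovl6, an elongase of the fed state, had 572 and 2705 counts for Ctrl-F1 against 1069 and 506 for KO-F1. They were taken from 11505 genes for this likeness, so that each was high in the same libraries as Acot3 follows from the choice.

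In spermatozoa a different set of members was present. Acot3 and Acot4, both readily counted in liver, were at 0 counts in all 6 sperm libraries, which allows up to 2.52 CPM in the shallowest library and 0.265 CPM in the deepest. Acot5 had at most 2 counts in any of them. Acot6, near the detection limit in liver, had 0 and 0 counts for Ctrl-F1 spermatozoa, 192 and 53 for KO-F1 and 31 and 21 in KO-F2. Its levels were 57.2 and 22.6 CPM in KO-F1 and 2.74 and 2.55 CPM in KO-F2. Every KO-F1 library was thus above every other sperm library, and against the limit of 3 counts per library the mean of KO-F1 was at least 20.9-fold higher than that of Ctrl-F1. The KO-F2 mean was at least 1.39-fold higher than Ctrl-F1, a bound set by the smaller totals of the Ctrl-F1 libraries. Acot6 is known as a peroxisomal thioesterase for branched-chain acyl-CoA such as phytanoyl-CoA.

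Acot9, a mitochondrial enzyme with broad chain-length use, had 32 and 30 counts for Ctrl-F1, 171 and 78 for KO-F1 and 177 and 144 in KO-F2. Its levels of 13.8 and 25.2, 50.9 and 33.3, and 15.6 and 17.5 CPM put both KO-F1 libraries above all others, while KO-F2 lay within the range of Ctrl-F1. Acot13 was likewise highest in both KO-F1 libraries, with 22 and 24 counts for Ctrl-F1, 226 and 86 for KO-F1 and 182 and 129 in KO-F2, which is 14.8 ± 7.56, 52.0 ± 21.6 and 15.9 ± 0.310 CPM (SD, n = 2). Acot1 had 0 and 5 counts for Ctrl-F1, 91 and 38 for KO-F1 and 71 and 69 in KO-F2, and here both KO-F1 and KO-F2 lay above Ctrl-F1. Acot9 and Acot10 summed gave nearly the value of Acot9 alone in KO-F1 over Ctrl-F1, 1.101 ± 0.58 on the log2 scale, and Acot1 with Acot2 summed gave 2.42 ± 0.95.

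Acot2 had 4 and 7 counts for Ctrl-F1, 40 and 13 for KO-F1 and 40 and 63 in KO-F2, with overlap between all groups in CPM. Acot8 had 18 and 0, 59 and 8, and 95 and 67 counts, and its F1 groups overlapped while both KO-F2 levels (8.39 and 8.12 CPM) lay above those of Ctrl-F1 (7.76 and 0 CPM). Acot12, the abundant acetyl-CoA hydrolase of liver, had 0 and 1 counts for Ctrl-F1, 0 and 0 for KO-F1 and 44 and 16 in KO-F2, or 3.89 and 1.94 CPM in KO-F2. Against the limit of 3 counts per library, the KO-F2 mean was at least 2.68-fold higher than that of KO-F1. A level like that of KO-F2 replicate 2 would lie under the limit of the shallower Ctrl-F1 library, 2.52 CPM.

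**Figure D3:**
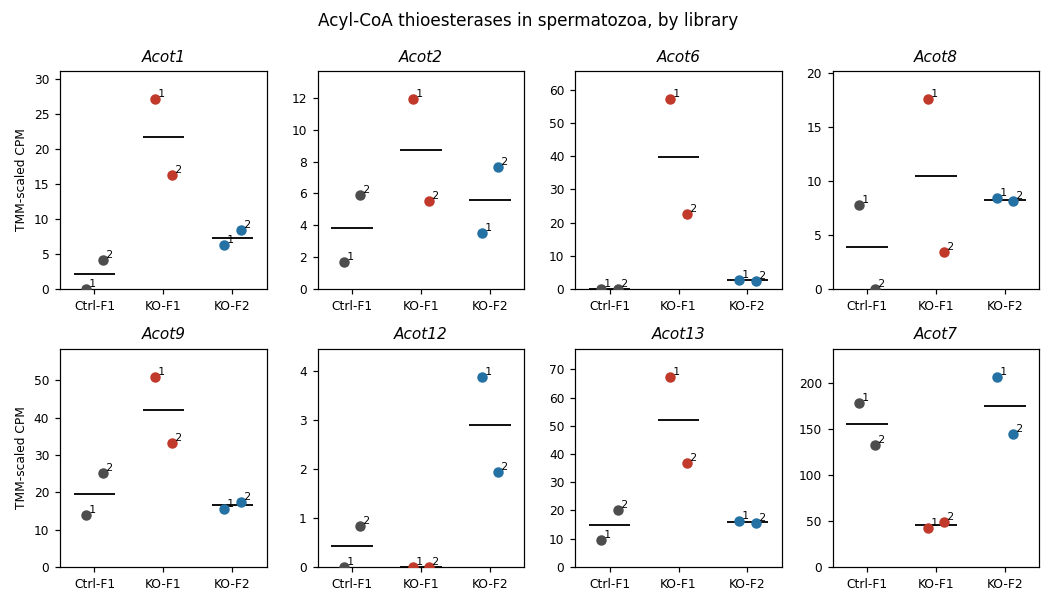
TMM-scaled CPM in the 6 sperm libraries for the 7 members that passed the filter in a sperm comparison and for Acot7, a further thioesterase outside the set; points are libraries with replicate numbers, bars are means of the 2 libraries, and each axis starts at 0. Acot6, Acot9 and Acot13 are highest in both KO-F1 libraries, Acot12 is highest in KO-F2, and Acot7 runs the opposite way to Acot6.

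For KO-F1 over Ctrl-F1 spermatozoa, 6 members were tested and edgeR called 0 of them, beside 0% of all genes. At an unadjusted p under 0.05 it gave 3 members and 2105 of the 10785 genes tested. DESeq2, which gave 3 of the members an adjusted p, called 1, Acot6, beside 7.8% of the 5000 genes with an adjusted p. Without overlap, 4 members lay higher (Acot1, Acot6, Acot9, Acot13) and 0 lower, beside 28.6% of all genes higher and 25.4% lower. Acot1 and Acot6 had a Ctrl-F1 library at 0 counts and would not have passed the filter on Ctrl-F1 counts alone. Neither could have come out lower. The set was chosen with the sperm levels of Acot6 and Acot9 in view, so this count and the DESeq2 call are no test. The fitted log2 fold changes were 3.52 ± 1.44 for Acot1, 1.81 ± 0.65 for Acot13, 1.105 ± 0.61 for Acot9, 1.29 ± 1.57 for Acot8 and 1.22 ± 1.26 for Acot2. The value for Acot1 rests on 0 and 5 Ctrl-F1 counts: it was 2.35 without Ctrl-F1 replicate 1, and without replicate 2 the remaining Ctrl-F1 library was at 0. Acot8 was -0.24 without KO-F1 replicate 1 and 0.39 without Ctrl-F1 replicate 2, and without Ctrl-F1 replicate 1 its remaining Ctrl-F1 library was at 0. Acot2 ran from 0.56 to 2.27 with 1 library left out, and Acot6 is given above as a bound. Scaling by library totals in place of TMM moved the median of all genes by 0.44 in this comparison, by 0.16 for KO-F2 over Ctrl-F1 and by -0.42 for KO-F2 over KO-F1.

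The KO-F2 libraries were compared with the same Ctrl-F1 and KO-F1 libraries, so these comparisons share samples. For KO-F2 over Ctrl-F1, 7 members were tested, and edgeR called 0 of them, beside 0% of all genes. At an unadjusted p under 0.05 it gave 1 member, Acot6, and 1960 of the 13149 genes tested. DESeq2, which gave 5 of them an adjusted p, called 0, beside 2.14% of the 12963 genes with an adjusted p. Acot1, Acot6, Acot8 and Acot12 lay higher without overlap and 0 members lower, beside 28.5% and 19.5% of all genes. Each of these had a Ctrl-F1 library at 0 counts, so none could have come out lower. None would have passed the filter on its Ctrl-F1 counts alone, so the count is not comparable with the shares of all genes. Acot9 and Acot13 fitted at -0.20 ± 0.52 and 0.15 ± 0.58, Acot1 at 2.03 ± 1.44, Acot8 at 0.96 ± 1.26 and Acot2 at 0.64 ± 0.99. Acot9 (0.30 without Ctrl-F1 replicate 2) and Acot13 (-0.28 without Ctrl-F1 replicate 1) changed sign with a single library left out, as did Acot2 (-0.02 without Ctrl-F1 replicate 1, 1.71 without replicate 2). Acot1 was 0.86 without Ctrl-F1 replicate 1 and Acot8 0.13 without Ctrl-F1 replicate 2, and with the other Ctrl-F1 library left out each was set against a library at 0.

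For KO-F2 over KO-F1, edgeR called 0 of 7 members and 2.31% of all genes tested. At an unadjusted p under 0.05 it gave 5 members and 4968 of the 13517 genes tested. DESeq2 called Acot6, beside 13.6% of the 15135 genes with an adjusted p. Acot1, Acot6, Acot9 and Acot13 lay lower without overlap, beside 32.4% of all genes, and Acot12 higher, beside 33.9%. Acot12, at 0 counts in both KO-F1 libraries, passed the filter only through KO-F2 and could not have come out lower. Acot6 fitted at -3.72 ± 0.59, Acot13 at -1.53 ± 0.41, Acot1 at -1.39 ± 0.51 and Acot9 at -1.17 ± 0.39. Acot2 fitted at -0.49 ± 0.75 and Acot8 at -0.17 ± 0.78. Without KO-F1 replicate 1, Acot6 fitted at -2.97 and Acot13 at -1.09. Without KO-F1 replicate 2 they fitted at -4.27 and -1.93.

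Shares of cell markers also differed between the sperm libraries. The 10 members summed to 0.00313% and 0.00446% of Ctrl-F1 counts, 0.0280% and 0.0133% of KO-F1 counts, and 0.00560% and 0.00607% of KO-F2 counts. The 8 late spermatid and sperm markers took 12.8% and 11.4% for Ctrl-F1, 5.70% and 4.19% for KO-F1, and 14.5% and 13.95% for KO-F2. The KO-F1 libraries, with the highest thioesterase levels, thus had the lowest share of sperm markers. Among these markers, the study itself reported Prm1, Prm2 and Tnp2 as downregulated in KO-F1 spermatozoa. Their part of the low sum restates that result. Of the 12 epididymal epithelium markers, between 7 and 11 had at least 10 counts in a library, and they summed to 2.23% and 0.751% for Ctrl-F1, 1.58% and 1.59% for KO-F1, and 0.388% and 0.178% for KO-F2. Crisp1 made up most of that sum in every sperm library, and single markers differed. Lcn12 had 92 and 48, 962 and 321, and 791 and 394 counts, in the same order of groups. Spink8 had 5580 and 1429, 14573 and 5362, and 6769 and 1737. Relative to library totals, both were highest in KO-F1, as Acot9 and Acot13 were. Crisp1 had 44302 and 8193, 25633 and 24072, and 32737 and 10567 counts. Adam7 had 3736 and 1233, 2114 and 2668, and 3495 and 1544. Relative to library totals, Crisp1 and Adam7 were highest in Ctrl-F1 replicate 1. The remaining markers of this set did not share a single order. The 6 leukocyte markers took between 0.00672% and 0.0356% in the F1 libraries and 0.214% and 0.344% in KO-F2, where Lyz2 had 21877 and 26974 counts and all 6 were present, whereas Cd3e was at 0 in the F1 libraries. Hepatocyte markers summed to at most 57 counts in any sperm library. Myoid and fibroblast genes made up between 0.00349% and 0.0276%, and adipocyte genes at most 117 counts. Among 3 red blood cell markers Hba-a1 and Hba-a2 were at 0 counts and Alas2 had 251 and 3603 counts in KO-F2. The part of other cells in the thioesterase levels was not tested, and in bulk RNA fewer cells of a type and less RNA per cell cannot be told apart.

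**Figure D4:**
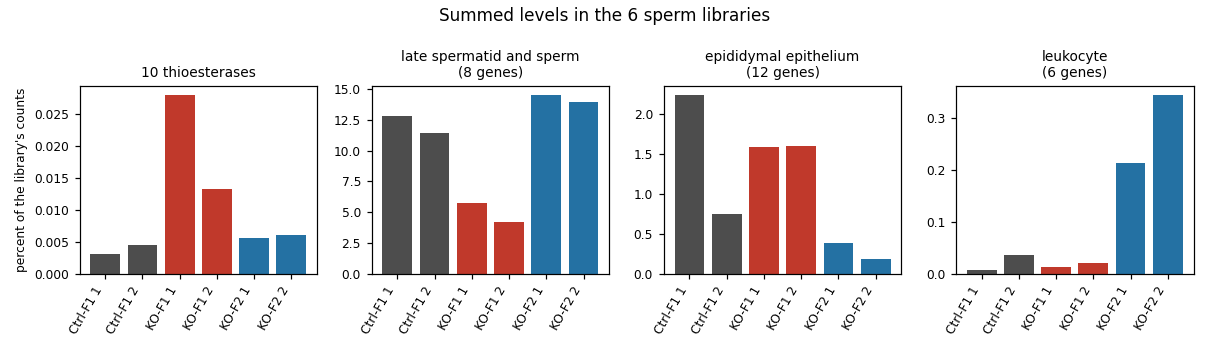
Percent of each sperm library's counts in the 10 thioesterases and in 3 sets of cell markers, 1 bar per library, with its own axis from 0 in each panel. The thioesterase sum is highest in the KO-F1 libraries (0.0280% and 0.0133%), which hold the lowest late spermatid and sperm sums (5.70% and 4.19%). Those sums include Prm1, Prm2 and Tnp2, which the study reported as downregulated in KO-F1 spermatozoa.

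Of the thioesterases outside the set, Acot7, the cytosolic form best known from brain, had the highest CPM in Ctrl-F1 and KO-F2 spermatozoa. It had 414 and 158 counts for Ctrl-F1, 143 and 114 for KO-F1 and 2341 and 1192 in KO-F2. Its levels were 156 ± 32.3, 45.6 ± 4.28 and 176 ± 44.0 CPM (SD, n = 2), with both KO-F1 libraries the lowest. The log2 fold change of KO-F1 over Ctrl-F1 was -1.80 ± 0.43 (edgeR, adjusted p = 0.14), and DESeq2 called it. For KO-F2 over KO-F1 it was 2.13 ± 0.36 (edgeR, adjusted p = 0.0119), which DESeq2 also called. Them6 ran the same way, with 19 and 15, 6 and 3, and 241 and 95 counts (KO-F2 over KO-F1 3.58 ± 0.72, edgeR, adjusted p = 0.0191). Them4 had 24 and 28, 213 and 68, and 206 and 113 counts, high in KO-F1 as Acot9 and Acot13 were (KO-F1 over Ctrl-F1 1.45 ± 0.68, edgeR, adjusted p = 0.291). Acot10 had between 1 and 19 counts, Acot11 had 11 in each KO-F2 library and 0 in the others, and Baat and Them5 were at 0.

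The gene lists were also compared in spermatozoa. In KO-F1 over Ctrl-F1, edgeR called 0 genes of any list. Of 14 tested peroxisomal genes 4 were higher and 0 lower at an unadjusted p under 0.05, and 10 lay higher and 1 lower without overlap (all genes 28.6% and 25.4%, with 2105 of 10785 at an unadjusted p under 0.05), at a median of 0.90 on the log2 scale (all genes 0.02). Scp2, which makes the sterol carrier protein and a peroxisomal thiolase, had 119 and 68 counts for Ctrl-F1 against 1026 and 382 for KO-F1 (2.08 ± 0.46, edgeR, adjusted p = 0.14), and DESeq2 called it. Nudt19, a peroxisomal hydrolase of coenzyme A, fitted at 1.70 ± 0.63 (edgeR, adjusted p = 0.203). Of 13 mitochondrial beta-oxidation genes 1 was higher and 0 lower at an unadjusted p under 0.05, and 6 lay higher and 2 lower without overlap (all genes 28.6% and 25.4%), with a median of 1.13. Crat, carnitine acetyltransferase, went the other way, with 1444 and 870 counts for Ctrl-F1 against 497 and 523 for KO-F1 (-1.88 ± 0.42, edgeR, adjusted p = 0.14). Acsl4 fitted at 2.46 ± 0.58 and Acsl1 at -1.49 ± 0.39, both long-chain acyl-CoA synthetases (edgeR, adjusted p = 0.14 for each). DESeq2 called Crat, Acsl4 and Acsl1.

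In KO-F2 over Ctrl-F1 edgeR again called 0 genes of any list, and the peroxisomal list had 0 genes at an unadjusted p under 0.05 and 5 higher and 4 lower of 15 without overlap (all genes 28.5% and 19.5%), with a median of -0.04 against 0.07 over all genes. Acaa2, the last enzyme of mitochondrial beta-oxidation, had 25 and 42 counts for Ctrl-F1 against 1573 and 1009 for KO-F2 (2.58 ± 0.57, edgeR, adjusted p = 0.185), and DESeq2 called it. In KO-F2 over KO-F1, 3 genes of these lists were called, all higher, as were 285 of the 312 genes called in all (2.31% of genes tested): Crat at 2.66 ± 0.37 (edgeR, adjusted p = 0.00962), Acaa2 at 2.93 ± 0.36 (edgeR, adjusted p = 0.00911) and Lpin1, a phosphatidate phosphatase, at 2.35 ± 0.33 (edgeR, adjusted p = 0.00965). Of 15 peroxisomal genes 0 were called (4 at an unadjusted p under 0.05, all lower), 11 lay lower and 1 higher without overlap (all genes 32.4% and 33.9%), with a median of -0.83 against 0.13 over all genes, and Scp2 fitted at -2.07 ± 0.38 (edgeR, adjusted p = 0.015), which DESeq2 called.

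The genes nearest to Acot6 in pattern over the 6 sperm libraries, by the same measure as above, were C030034I22Rik at 0.433, Zfp790 at 0.509 and Heyl at 0.607. Each had at most 1 count in either Ctrl-F1 library. Zfp790 had 94 and 67 counts in KO-F1 and 14 and 28 in KO-F2, and Heyl had 70 and 22 in KO-F1 and 7 and 17 in KO-F2. They were taken from 12331 genes.

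Per length of exon, Acot13 was the highest member in every group, as in liver, with 21.6 ± 11.01 CPM per kb in Ctrl-F1 spermatozoa, 75.8 ± 31.6 in KO-F1 and 23.1 ± 0.452 in KO-F2 (SD, n = 2). Acot9 was second in each, at 10.6 ± 4.37, 22.8 ± 6.75 and 8.95 ± 0.697 CPM per kb. In KO-F1, Acot6 ranked next with 21.9 ± 13.4 CPM per kb, and its replicates overlapped those of Acot9 above it and of Acot1 below it (13.9 ± 4.94). In KO-F2, Acot6 was sixth at 1.45 ± 0.0747 CPM per kb, below Acot1, Acot2 and Acot8. Within the cluster, the genes thus differed by tissue: Acot4 and Acot3 were counted in liver and at 0 in spermatozoa, while Acot6, the last gene of the cluster, was at most 0.559 CPM per kb in any liver library. Liver and sperm libraries were made with different kits, so no test was made between the tissues.

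**Figure D5:**
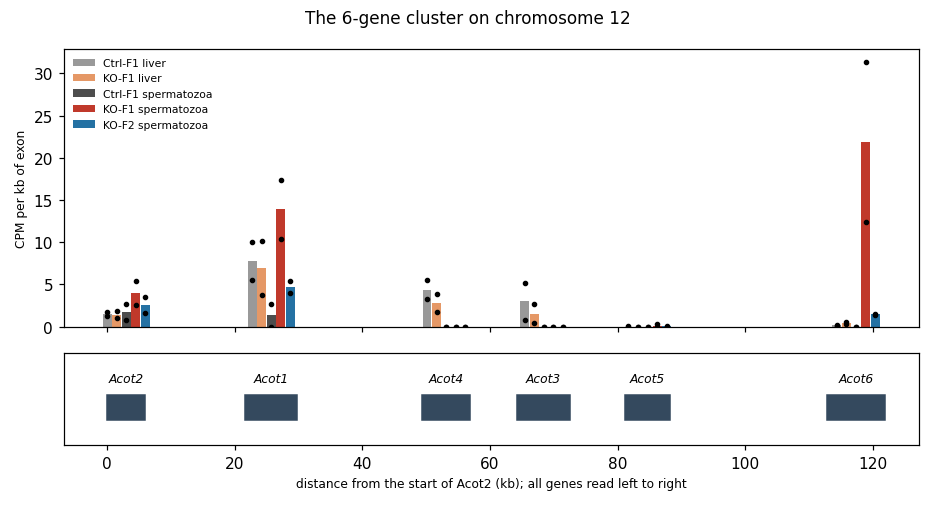
Mean CPM per kb of exon of the 6 cluster genes (bars; the 2 libraries as points) in each of the 5 groups, above their place in the cluster as distance in kb from the start of Acot2. Acot4 and Acot3 have bars in liver and none in spermatozoa, Acot1 has bars in all groups, and Acot6 stands out in KO-F1 spermatozoa at 21.9 CPM per kb.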

How the data were processed

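RNA was sequenced from liver (TruSeq Stranded mRNA kit) and from swim-up spermatozoa (SMART-Seq v4 kit, amplified by PCR, so counting limits cover counting error only). Single-end reads (75 bp) were mapped by the authors with HISAT2 2.1.0 to GRCm38; they counted unique reads per gene with featureCounts and deposited raw counts, 1 file per library. The annotation and the strand setting are not given in the sources used here. Each file lists 23420 lines, of which 4, for 2 symbols listed more than once, were left out.

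edgeR 4.0.16 (R 4.3.3; TMM, filterByExpr with a minimum count of 10 and total of 15, quasi-likelihood F test) was fitted on all genes of the 2 groups compared, without other terms. A gene was called at an adjusted p (Benjamini-Hochberg) under 0.01 with a fold of 2 or more. The SE is the size of the log2 fold change over the square root of F. Alternatives were DESeq2 1.42.0, other scalings, filters and thresholds, the replicate number as a block, thinned counts and a model of all 3 sperm groups. Further alternatives left out each library or summed related genes that share some windows (Acot1 with Acot2, Acot3 to Acot6, Acot9 with Acot10). The script was tested on simulated data.

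Groups follow the labels. The labels name replicates but not the animals, so p-values measure the spread between these samples. The members and lists were chosen with earlier results of these data known. Named genes outside the set are all other thioesterases, from each further list the up to 3 higher and 3 lower genes with the smallest p among those without overlap (only some are printed), markers, and the 3 genes nearest in pattern to the liver and the sperm member of widest range. Exon lengths and promoters are from RefSeq, shared windows from GENCODE M21 transcripts. The other 37 samples were not analysed here.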

Additional observations from a re-analysis of the deposited data

How the results depend on the processing

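Counts of members called were 0 in all 4 comparisons, and for KO-F2 over KO-F1 most alternatives called at least 1. In liver the count was between 0 and 1 when a library was left out, the 1 being Acot3 without Ctrl-F1 replicate 1, and 0 under every other alternative. In KO-F1 over Ctrl-F1 spermatozoa it was 1 (Acot6) with DESeq2 and with no filter, 3 (Acot1, Acot6, Acot13) at an unadjusted p under 0.05, and 0 with any library left out. In KO-F2 over Ctrl-F1 it was 1 (Acot6) at an unadjusted p under 0.05 and 0 otherwise. In KO-F2 over KO-F1 it was 1 (Acot6) with DESeq2, with DESeq2 size factors in edgeR, with no filter, with at least 10 counts in every library, with thinned counts and with the replicate block. There it was 3 (Acot6, Acot12, Acot13) at an adjusted p under 0.05, 5 at an unadjusted p under 0.05 and between 0 and 2 with a library left out. The cause of these changes was not tested.

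Same-numbered samples belong to groups of different parentage, and the labels give nothing but the number that they share. Their deviations correlated at -0.16 in liver and at -0.01, 0.15 and 0.06 in the sperm comparisons. With the replicate block the members called were 0, 0, 0 and 1, and genes called went from 0 to 2 in liver, from 0 to 362 in KO-F2 over Ctrl-F1 and from 312 to 819 in KO-F2 over KO-F1, and stayed at 0 in KO-F1 over Ctrl-F1.

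Log2 fold changes of members kept their sign in 53 of 53 values under the alternatives other than leaving out a library in liver, 46 of 46 in KO-F1 over Ctrl-F1 spermatozoa, 49 of 50 in KO-F2 over Ctrl-F1 and 55 of 56 in KO-F2 over KO-F1. With a library left out they kept it in 25 of 32, 23 of 24, 20 of 24 and 25 of 27 values. Genes called over the whole table changed by over 1.5 times with several settings: DESeq2 called 20, 390, 277 and 2058 genes where edgeR called 0, 0, 0 and 312. No filter gave 25, 113, 39 and 2552 calls, at least 10 counts in every library 1, 200, 1 and 1805, an adjusted p under 0.05 gave 1, 0, 0 and 2759, and library totals gave 0 in each. In KO-F2 over KO-F1 a model of all 3 groups called 198 genes and thinned counts 692. With a library left out the calls over all genes ranged from 4 to 107 in liver, were 0 in KO-F1 over Ctrl-F1, and ranged from 35 to 277 in KO-F2 over Ctrl-F1 and from 230 to 2898 in KO-F2 over KO-F1. Unadjusted p-values were under 0.05 for 1083, 2105, 1960 and 4968 of the 11505, 10785, 13149 and 13517 genes tested. The F1 sperm totals limit what Acot6, Acot1, Acot5 and Acot12 can show.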
